A study of Mus musculus with 12 samples.

Results

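The genes described here are 40 genes of antigen presentation and the interferon response, followed through mouse liver under 2 genotypes and 3 feeding states. They were listed by name as genes of the major histocompatibility complex (MHC), of antigen processing and of the interferon response. Earlier results of these data were known when the list was made. All 40 were among the 16346 genes of the deposited table. Of the 40, 38 passed a filter on low values and were tested beside 12366 genes in all. They fall into 10 genes of MHC class I and peptide loading, 7 of MHC class II, 4 transcription factors, 12 effectors of the type I interferon response and 7 GTPases induced by interferon gamma.

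Liver RNA was sequenced from 12 C57BL6J mice aged 12 weeks, with 2 mice in each of 6 groups. Control mice carried the floxed allele (Med13fl/fl), and MED13-LKO mice carried the liver knockout that Alb-Cre makes from it. The albumin promoter acts in hepatocytes, so other liver cells of a MED13-LKO mouse keep the gene. Mice of each genotype were either fasted overnight for 16 h, or refed for 4 h on normal chow and water holding 30% sucrose or 30% fructose. Both refed groups received chow as well as sugar, so chow and sugar cannot be told apart in a comparison with fasted mice. By the paper's methods, fasted mice were killed earlier in the day than fed mice, so time of day cannot be told apart from feeding either. MED13 belongs to the kinase module of Mediator, a large complex through which DNA-bound regulators reach the polymerase. The study asked how this module takes part in the liver's response to dietary sugar.

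The RNA of the targeted gene was read first. Med13 RNA ranged from 578 to 796 normalized counts in control mice (median 673) and from 646 to 1055 in the MED13-LKO libraries (median 763). The genotypes overlapped and Med13 was not lower (log2 change 0.22, SE 0.115, adjusted p = 0.201, limma with Benjamini-Hochberg adjustment), so libraries are named below by their label. Which exons are deleted is not given in the sources used here, so the summed RNA of the gene does not check the label. By Western blotting of liver nuclear protein, the paper reports that MED13 and MED12 were almost completely lost in MED13-LKO mice. Protein was not measured here. Libraries held an estimated 16110587 to 24207589 reads on genes. The summed normalized counts were 21062210 to 24152884 in control mice and 17309215 to 18738563 in libraries labelled MED13-LKO.

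Hepatocytes make most liver RNA, while MHC class II genes are mainly the work of macrophages, dendritic cells and B cells, so markers of each cell type were measured beside the genes of interest. All 5 hepatocyte markers were lower in libraries labelled MED13-LKO, by 0.36 to 0.69 on the log2 scale. Their summed level was 2.36e+06 to 3.02e+06 normalized counts in control mice and 1.77e+06 to 2.12e+06 in the other genotype, with no overlap. Of 10 macrophage markers, 1 was called: Marco, a scavenger receptor, rose from a median of 106 to 241 normalized counts (log2 change 1.22, SE 0.138, adjusted p = 0.000212). All 10 macrophage markers had a positive log2 change between genotypes, with a median of 0.16. The macrophage sums were 3923 to 5580 in control mice and 4606 to 5979 in the other genotype. None of the 6 dendritic cell markers tested, the 1 B cell marker, the 2 T and NK cell markers or the 2 neutrophil and monocyte markers passed. The summed level of all 9 T and NK cell markers was nevertheless 49.4 to 63.4 in control mice and 71.6 to 113 in libraries labelled MED13-LKO, with no overlap. The 5 neutrophil and monocyte markers in the table summed to 33.5 to 72.5 and to 62.9 to 124. Dendritic cell markers summed to 193 to 236 and to 196 to 281, and B cell markers to 62.6 to 96.3 and to 72.5 to 93.2, with overlap in both. Of 6 markers of sinusoidal endothelium 4 were higher (sums 3831 to 4602 and 4524 to 5919), and 3 of 6 stellate cell markers were lower (5341 to 6434 and 4842 to 5590.2). Over all genes tested, 12.1% were called higher and 13.2% lower between genotypes. No marker in the table was at 0 in all libraries. The part of these cell types in the results below was not tested.

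Nearly every cell shows peptides from its own proteins on MHC class I. Proteasomes that carry the inducible subunits Psmb8, Psmb9 and Psmb10 cut the proteins, the transporter Tap1-Tap2 moves the peptides into the endoplasmic reticulum, and tapasin loads them onto a heavy chain paired with beta-2-microglobulin. MHC class II instead shows peptides from proteins that professional antigen-presenting cells take up. Interferons raise both routes. Type I interferons act on genes through DNA elements called interferon-stimulated response elements, and interferon gamma through gamma-activated sites.

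Those binding elements can be seen in the DNA just before several of the genes. A promoter window from RefSeq on GRCm38.p6, 250 bases before the start and 50 from the start on, was matched by symbol for 33 of the 40 genes. The pattern GAAANNGAAA on either strand, written here for the response element, was found in the windows of 14 of the 33 (42.4%), and in 3.99% of 27025 genes with a window. The pattern TTCNNNGAA for the gamma-activated site was found in 8 of 33 (24.2%) and in 9.55% of all. The stretches below end at the base before the RefSeq start, run 5′ to 3′ on the gene's own strand, and are shown for 4 genes that were higher after feeding, for Oasl1, which differed with both feeding and genotype, for Gbp7, which differed between genotypes, and for Isg15, which was called in no comparison. They were chosen after their values and matches were seen, 6 of the 7 hold a match, and they do not stand for the genes called between genotypes. Capitals mark a match to either pattern.
Igtp (chr11:58199456-58199555, plus strand, 100 bases): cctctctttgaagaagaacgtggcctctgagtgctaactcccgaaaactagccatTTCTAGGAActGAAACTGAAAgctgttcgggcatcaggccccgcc
Irgm2 (chr11:58214877-58214976, plus strand, 100 bases): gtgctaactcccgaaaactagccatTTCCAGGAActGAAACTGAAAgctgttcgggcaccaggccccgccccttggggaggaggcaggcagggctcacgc
Irgm1 (chr11:48871421-48871520, minus strand, 100 bases): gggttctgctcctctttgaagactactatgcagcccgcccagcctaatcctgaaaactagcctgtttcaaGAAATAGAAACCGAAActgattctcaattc
Irf1 (chr11:53769894-53770013, plus strand, 120 bases): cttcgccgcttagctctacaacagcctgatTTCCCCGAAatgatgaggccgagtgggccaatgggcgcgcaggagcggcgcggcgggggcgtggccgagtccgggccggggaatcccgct
Gbp7 (chr3:142530216-142530335, plus strand, 120 bases): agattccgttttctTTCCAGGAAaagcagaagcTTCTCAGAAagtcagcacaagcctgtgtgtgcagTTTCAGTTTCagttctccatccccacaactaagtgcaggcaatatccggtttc
Isg15 (chr4:156200819-156200918, minus strand, 100 bases): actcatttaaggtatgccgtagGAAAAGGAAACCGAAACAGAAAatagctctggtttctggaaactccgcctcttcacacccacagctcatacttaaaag
Oasl1 (chr5:114923120-114923239, plus strand, 120 bases): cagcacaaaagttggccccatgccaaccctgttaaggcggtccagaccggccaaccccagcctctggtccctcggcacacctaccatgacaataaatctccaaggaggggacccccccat

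Igtp and Irgm2 each held a gamma-activated site followed by a response element 2 bases further on, and Irgm1 held 2 overlapping response elements, while Irf1 held a gamma-activated site alone. The stretches of Igtp and Irgm2 are near copies of each other around their matches, so they are not 2 separate examples. Gbp7 held both elements, and Isg15 a run of 3 overlapping response elements. The Oasl1 window held a match to neither. A match is a run of letters, and binding was not measured. The stretch before Irgm1 lies in an exon of a noncoding Irgm1 transcript in GENCODE M21, and the end of that before Oasl1 lies in an exon of the antisense gene Gm13822. The stretch before Irgm2 lies inside the span of Irgm2 in GENCODE M21, which starts further upstream.

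The first comparison was between genotypes, averaged over the 3 feeding states. In libraries labelled MED13-LKO, 8 of 10 class I and peptide loading genes were higher, with B2m lower and Nlrc5 not called. Irf7, 3 of 12 interferon effectors and Gbp7 were higher as well, and none of the 5 MHC class II genes tested was. Of the 38 genes tested, 13 were called higher and 3 lower at an adjusted p under 0.05. Over all genes tested, 12.1% were called higher and 13.2% lower. The median log2 change of the 38 was 0.21, against 0.0058 over all genes tested. In 6 of the 38 (H2-D1, Tap2, Psmb8, Irf7, Usp18 and Gbp7), all 6 libraries labelled MED13-LKO lay above all 6 control mice, which held for 3.92% of all genes tested. The opposite order held for none of the 38 and for 4.93% of all genes tested. In whole liver, a change in the number of cells of one type cannot be told apart from a change in RNA per cell.

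**Figure D1:**
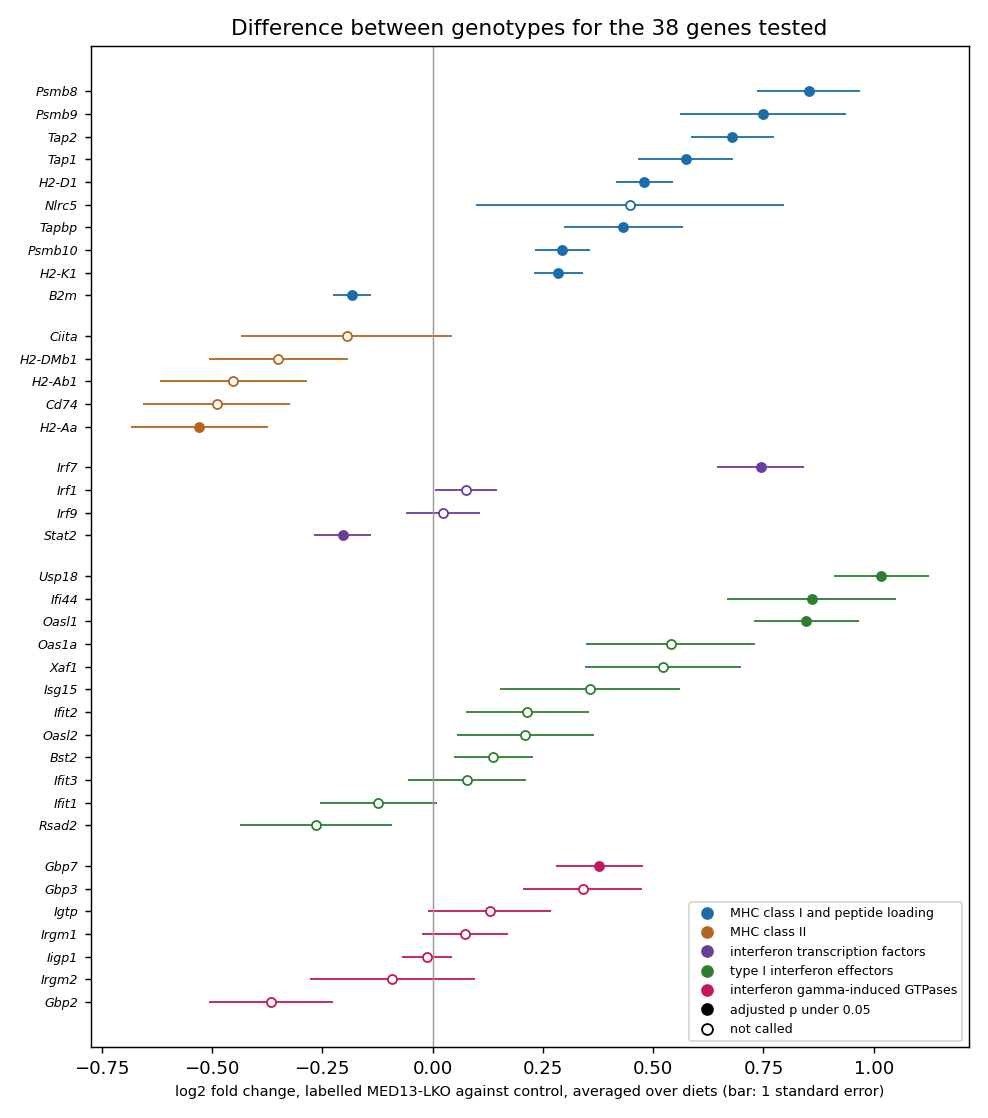
Each point is the log2 fold change of libraries labelled MED13-LKO over control mice for 1 of 38 genes, averaged over 3 feeding states (6 libraries a genotype), with a bar of 1 standard error. Points are grouped and coloured by role and filled where the adjusted p was under 0.05: 8 of 10 class I genes lie filled to the right of 0, and all 5 class II genes lie to the left, 1 of them filled.

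Of the 10 class I and peptide loading genes, 8 were higher, 1 was lower and 1 was not called, beside 12.1% higher and 13.2% lower over all genes tested. The heavy chain gene H2-D1 (chr17:35262730-35267499, plus strand) held 7849 and 8984 when fasted, 8209 and 6789.7 on sucrose, then 7746 and 8009.7 on fructose in control mice, in normalized counts, and 11234 and 12321, 10424 and 10319.5, then 10171 and 11878 in libraries labelled MED13-LKO in the same order. Every library of the second set lay above every one of the first, in each feeding state. H2-D1 was 1.40-fold higher on average (log2 change 0.48, SE 0.0655, adjusted p = 0.000678). It was also called in each feeding state on its own, but those calls were lost without any of the 4 fasted mice, without control sucrose 2 or either MED13-LKO sucrose mouse, and without either control fructose mouse or MED13-LKO fructose 2. With 1 mouse left out the log2 change ran from 0.34 to 0.61 over the 3 states. The sucrose call was also lost with the replicate block, and the sucrose and fructose calls when only the groups compared were fitted. The other heavy chain gene, H2-K1 (chr17:33996017-34000347, minus strand), ranged from 17229 to 22595 (median 19921) in control mice and from 21737 to 26780.3 (median 24168) in the other genotype, and overlapped in 1 library (log2 change 0.28, SE 0.0557, adjusted p = 0.00495). Of all 31-base subsequences of H2-D1 and H2-K1, 26.7% and 22.8% recur in another gene, chiefly in each other, so counts could be split between them.

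B2m, the light chain that every class I molecule needs, went the other way. It held 35290.5 and 35952 when fasted, 30597 and 30206 on sucrose, then 30684 and 29441 on fructose in control mice and 28685 and 28960.1, 26757 and 26409.6, then 28075 and 30111 in the other genotype. The fasted mice of the genotypes stood furthest apart, and 5 of 6 libraries labelled MED13-LKO lay below all control mice (log2 change -0.18, SE 0.0428, adjusted p = 0.0119). The call was made in the fasted state as well (log2 change -0.31, SE 0.0742, adjusted p = 0.0324), but that call was lost in 7 of 10 alternatives. These were any of the 4 fasted mice left out, no filter on low values, the replicate block and only the groups compared.

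Both chains of the peptide transporter were higher. Tap2 (chr17:34203527-34216321, plus strand) held 211 and 207 when fasted, 305 and 220.5 on sucrose, then 208 and 254 on fructose in control mice, and 309 and 325, 419 and 377, then 387 and 429 in libraries labelled MED13-LKO. The 2 sets did not overlap, and the lowest library of the second came from a fasted mouse (log2 change 0.68, SE 0.0944, adjusted p = 0.000735). Its partner Tap1 held 162 to 246 (median 190.0) and 188 to 371 (median 327), and the 1 overlapping library was again from a fasted mouse (log2 change 0.57, SE 0.108, adjusted p = 0.00401). Tapbp, which encodes tapasin, held 235 and 313 when fasted, 289 and 275 on sucrose, then 238 and 165 on fructose in control mice and 370.5 and 386, 367 and 252, then 372 and 284 in the other genotype. The 2 sets overlapped in 2 libraries, and the mice of a group lay far apart (log2 change 0.43, SE 0.134, adjusted p = 0.0399). The Tapbp call was lost when any of 8 of the 12 mice was left out (adjusted p from 0.0686 to 0.106), and was kept without control fasted 2, control fructose 1, MED13-LKO sucrose 2 or MED13-LKO fructose 2.

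The 3 inducible proteasome subunits were all higher. Psmb8 (chr17:34197721-34201454, plus strand) held 205 and 191 when fasted, 224 and 163 on sucrose, then 189 and 161 on fructose in control mice, and 298 and 323, 378 and 391, then 269 and 399 in libraries labelled MED13-LKO. The lowest of the second set, a fructose mouse, was above the highest control mouse, and Psmb8 was 1.81-fold higher (log2 change 0.85, SE 0.117, adjusted p = 0.000688). Psmb9 held 77.2 and 97.5 when fasted, 114 and 61.6 on sucrose, then 127 and 83.1 on fructose in control mice and 142 and 95.4, 207 and 202, then 130.4 and 175 in the other genotype, with 1 fasted library inside the control range (log2 change 0.75, SE 0.188, adjusted p = 0.0163). Psmb10, which lies outside the MHC on chromosome 8, showed a smaller difference (log2 change 0.29, SE 0.0626, adjusted p = 0.00736). Nlrc5, a transactivator of class I genes, held 13.2 to 79.6 (median 51.9) and 44.1 to 86.7 (median 54.9). The 2 mice of a group often differed widely, and it was not called (log2 change 0.45, SE 0.349, adjusted p = 0.389).

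**Figure D2:**
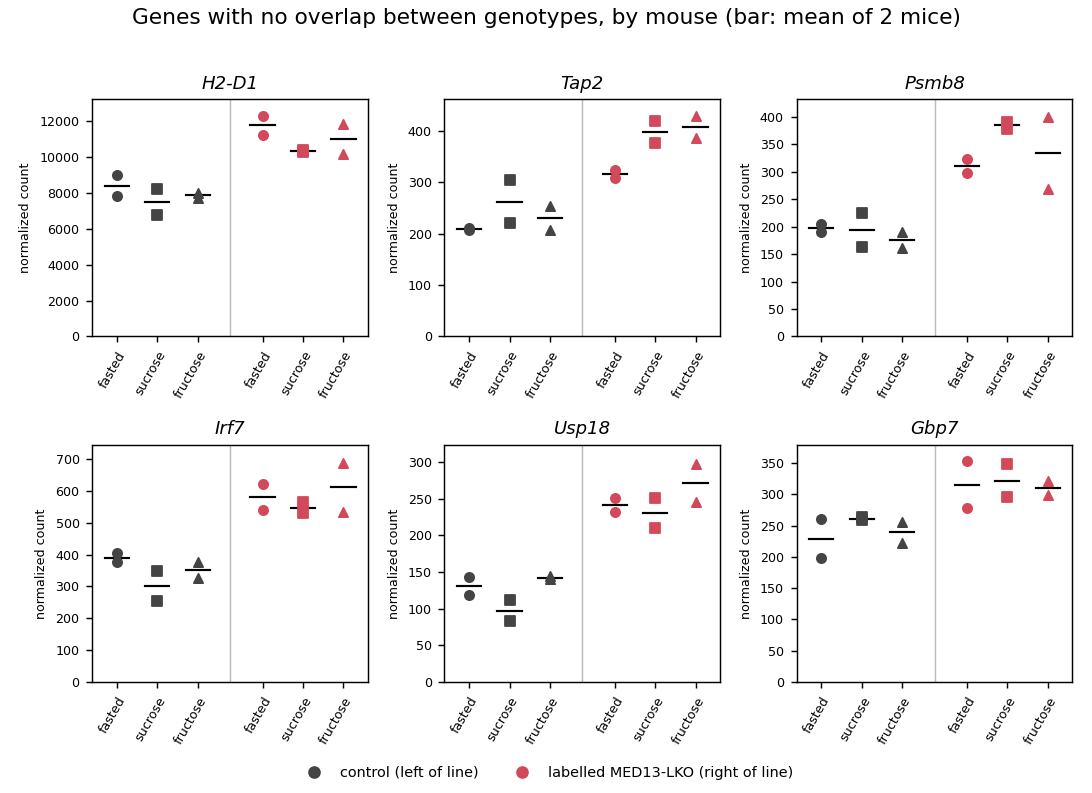
Normalized counts of H2-D1, Tap2, Psmb8, Irf7, Usp18 and Gbp7 in each mouse, with a vertical axis from 0, control mice left of the grey line and libraries labelled MED13-LKO right of it. Circles are fasted, squares sucrose and triangles fructose mice, and black bars are means of 2 mice; in every panel all 6 points on the right lie above all 6 on the left.

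Of the 5 MHC class II genes tested, none was higher and 1 was lower, beside 12.1% and 13.2% of all genes tested. H2-Aa, the alpha chain of I-A (chr17:34282744-34287823, minus strand), held 337 and 535 when fasted, 556 and 312 on sucrose, then 498 and 414 on fructose in control mice and 239.9 and 271, 311 and 278, then 334 and 378 in libraries labelled MED13-LKO. Control mice were the higher set but spread widely within a feeding state, and 4 of 6 libraries of the other genotype lay below all of them (log2 change -0.53, SE 0.155, adjusted p = 0.0321). The call was lost when any of 9 of the 12 mice was left out (adjusted p from 0.0536 to 0.079), and was kept without control fasted 1, control sucrose 2 or control fructose 2.

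The beta chain gene H2-Ab1 ranged from 156 to 319 (median 269) in control mice and from 159 to 205 (median 192) in the other genotype. The invariant chain gene Cd74, whose product occupies the class II groove until a peptide is loaded, ranged from 529.9 to 1044 (median 833) and from 454 to 618 (median 566). Neither was called (log2 change -0.45, SE 0.166, adjusted p = 0.0733 for H2-Ab1, and log2 change -0.49, SE 0.167, adjusted p = 0.0567 for Cd74). The 3 genes had their 2 lowest control values in fasted mouse 1 and sucrose mouse 2. H2-DMb1, part of the peptide exchange factor, and Ciita, the transactivator of class II genes, were at -0.35 and -0.19 on the log2 scale (adjusted p = 0.139 and 0.597). H2-DMb1 shares 31.4% of its 31-base subsequences, chiefly with H2-DMb2. H2-Eb1 was listed at 0 in 7 libraries with 13.4 at most, and H2-DMa at 0 in 10 libraries, and neither had the mean needed for a test.

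**Figure D3:**
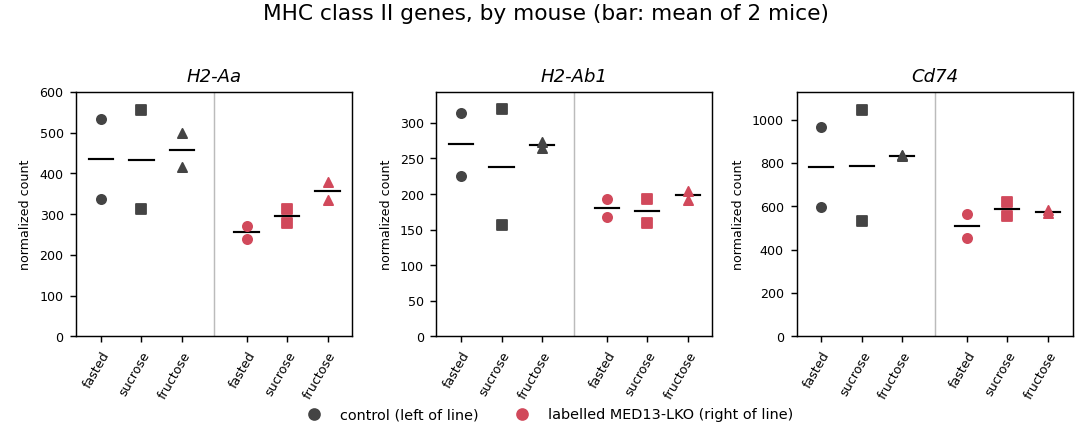
Normalized counts of the class II genes H2-Aa, H2-Ab1 and Cd74 in each mouse, with a vertical axis from 0, control mice left of the grey line and libraries labelled MED13-LKO right of it. Circles, squares and triangles are fasted, sucrose and fructose mice and bars are means of 2; the fasted and sucrose control mice lie far apart in each panel.

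Among the 4 transcription factors, Irf7 was higher and Stat2 lower, beside 12.1% and 13.2% of all genes tested. Irf7, which amplifies type I interferon production and is itself induced by it (chr7:141262706-141266481, minus strand), held 376 and 405 when fasted, 349.7 and 256 on sucrose, then 378 and 326 on fructose in control mice and 542 and 623, 566 and 530.5, then 536 and 688 in libraries labelled MED13-LKO. The 2 sets did not overlap in any feeding state, and the difference was 1.67-fold (log2 change 0.74, SE 0.0984, adjusted p = 0.000560). Stat2 ranged from 802 to 1117 (median 981) in control mice and from 697 to 979 (median 849.7), a log2 change of -0.20 (SE 0.0651, adjusted p = 0.0446). Its call was lost without any of 8 mice (adjusted p up to 0.12), without the filter on low values (adjusted p = 0.0519) and with equal 75th percentiles (adjusted p = 0.0722). It was kept without control sucrose 2, control fructose 2, MED13-LKO fasted 1 or MED13-LKO sucrose 2. Irf9, the DNA-binding partner of Stat2, and Irf1, an early gene of the interferon gamma response, gave 0.02 and 0.08 on the log2 scale and were not called.

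Of the 12 type I interferon effectors, 3 were higher and none lower, beside 12.1% and 13.2% of all genes tested. Usp18, a protease that removes Isg15 from proteins and dampens receptor signalling (chr6:121245906-121270917, plus strand), held 119 and 143 when fasted, 112 and 82.6 on sucrose, then 141 and 144 on fructose in control mice and 232 and 252, 251 and 210.3, then 246 and 297 in libraries labelled MED13-LKO. The second set lay wholly above the first. The difference of 2.02-fold was the largest of the 38 (log2 change 1.02, SE 0.107, adjusted p = 0.000137), and it was called in each feeding state. Those single-state calls were lost in 3 of 10 alternatives when fasted, 1 of 10 with sucrose and 3 of 11 with fructose. Oasl1, a member of the oligoadenylate synthetase family, rose 1.80-fold on average (log2 change 0.85, SE 0.119, adjusted p = 0.000810) and is described with feeding below. Ifi44, a gene named for its induction by interferon, held 33.8 and 44.7 when fasted, 37.4 and 28.2 on sucrose, then 56.4 and 28.7 on fructose in control mice and 64.1 and 66.3, 54.6 and 72.0, then 84.5 and 70.7 in the other genotype, with 5 of 6 libraries above all control mice (log2 change 0.86, SE 0.192, adjusted p = 0.00935).

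The other 9 effectors were not called, with log2 changes from -0.26 to 0.54 and a lowest adjusted p of 0.055. They include several antiviral genes that interferon induces. Isg15, the ubiquitin-like modifier, ranged from 52.8 to 103 (median 71.0) and from 48.5 to 147 (median 96.4), a log2 change of 0.36 (SE 0.203, adjusted p = 0.232). Ifit1, which binds foreign RNA ends, gave -0.12 (adjusted p = 0.543), and Rsad2, the antiviral enzyme viperin, gave -0.26 (adjusted p = 0.298). The tetherin gene Bst2 ranged from 1568 to 2028 (median 1732) and from 1662 to 2664 (median 1896), and with Ifit2, Ifit3 and Oasl2 it lay between 0.08 and 0.22. Xaf1 (log2 change 0.52, SE 0.177, adjusted p = 0.0550) and Oas1a (log2 change 0.54, SE 0.192, adjusted p = 0.0658) came nearest to a call. Oas1a and Ifit3 share 68.8% and 61.8% of their subsequences, chiefly with Oas1g and Ifit3b, so their counts are uncertain.

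The 7 interferon gamma-induced GTPases, which act against pathogens inside cells, gave 1 call between genotypes, a higher one. Over all genes tested, 12.1% were higher, so this share was near the background. Gbp7, a guanylate-binding protein gene, held 198 and 261 when fasted, 263 and 258 on sucrose, then 256 and 223 on fructose in control mice and 353 and 278, 349 and 295, then 299.5 and 321 in libraries labelled MED13-LKO. The sets did not overlap, and Gbp7 was called higher (log2 change 0.38, SE 0.0983, adjusted p = 0.0191). The call was lost without MED13-LKO fasted 1 (adjusted p = 0.0519) or MED13-LKO sucrose 1 (adjusted p = 0.0588). Gbp7 shares 11.3% of its exon bases with Gm43802 on the same strand. Gbp2 ranged from 96.4 to 149 (median 120.0) and from 69.6 to 133 (median 91.7), a log2 change of -0.37 that was not called, and Gbp3 gave 0.34. Iigp1 ranged from 4429 to 4778 (median 4561) and from 3904 to 5086 (median 4613). Igtp, Irgm1, Irgm2 and Iigp1 lay between -0.09 and 0.13.

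Promoter patterns were counted beside these calls. The response-element pattern was in 1 of the 11 windows of genes called higher in libraries labelled MED13-LKO, namely Gbp7, and in 11 of the 17 windows of genes not called. The gamma-activated pattern was in 2 of the 11 and in 6 of the 17. For the feeding comparison described next, the response-element pattern was in 4 of the 7 windows of genes called higher and in 9 of the 23 of genes not called. Igtp and Irgm2, whose stretches are near copies, are both among the 4. These counts are a description of windows of fixed length and were not tested.

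Within single feeding states, 2 mice were compared with 2. In fasted mice 3 of the 38 genes were higher (H2-D1, Tap2 and Usp18; 4.12% of all genes tested) and 1 was lower (B2m; 4.86%). With sucrose 6 were higher (2.70%) and none lower (3.33%): H2-D1, Psmb8, Psmb9, Irf7, Oasl1 and Usp18. With fructose 9 were higher (3.74%) and none lower (3.95%): H2-D1, Tap1, Tap2, Psmb8, Psmb10, Irf7, Oasl1, Usp18 and Gbp3. The largest of these differences was that of Oasl1 with fructose (log2 change 1.69, SE 0.207, adjusted p = 0.00123), the one single-state call between genotypes that held in all its 11 alternatives. Next came Psmb9 with sucrose (log2 change 1.28, SE 0.326, adjusted p = 0.0482) and Usp18 with sucrose (log2 change 1.25, SE 0.185, adjusted p = 0.00460). The Psmb9 call was lost in 7 of 10 alternatives and its log2 change was 0.84 without control sucrose 2. The calls of Tap2 when fasted, of Oasl1 with sucrose, and of Tap1 and Gbp3 with fructose were lost in 9 of 10, 7 of 10, 8 of 11 and 7 of 11 alternatives. Gbp3 with fructose (log2 change 0.88, SE 0.233, adjusted p = 0.0491) rested on 2 unequal libraries of 117 and 181 normalized counts. Irf7 missed the call in fasted mice (adjusted p = 0.0657). Its values did not overlap there, but how many of all genes do so with 2 mice against 2 was not counted.

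The second comparison was between feeding states. Averaged over genotypes and sugars, the interferon gamma-induced GTPases Igtp, Irgm1 and Irgm2 and the transcription factor Irf1 were higher in refed mice. In this comparison 7 of the 38 genes were called higher (10.7% of all genes tested) and 1 lower (11.0%). In Irf1, Igtp, Irgm1 and Irgm2 all 8 sugar-fed mice lay above all 4 fasted mice, which held for 4.01% of all genes tested. The median log2 change was 0.042 over the 38 and -0.0063 over all genes tested. Cell type markers also moved with feeding. Cps1 was lower (log2 change -0.45, adjusted p = 0.00469) and all 5 hepatocyte markers were below 0, Clec4g was lower (-0.37, adjusted p = 0.00241) and all 6 endothelial markers were below 0. Of the 6 stellate cell markers, Reln was lower (-0.23, adjusted p = 0.0488) and Col1a1 higher (0.50, adjusted p = 0.00131). No macrophage, dendritic cell, B cell, T and NK cell or neutrophil and monocyte marker was called, and the summed level of each of the 8 lists overlapped between fasted and refed mice. The macrophage sum was 4857 to 5943 normalized counts when fasted and 3923 to 5979 when refed, and the endothelial sum 4401 to 5919 and 3831 to 4874. The part of these cell types was not tested.

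Igtp (chr11:58199556-58207591, plus strand) held 289.5 and 449.9 normalized counts in fasted control mice, 916 and 653 on sucrose, then 761 and 741 on fructose. In libraries labelled MED13-LKO it held 378 and 324, 1077 and 839.7, then 698 and 973 in the same order. The fasted mice of both genotypes were low and all refed mice high, a 2.31-fold difference (log2 change 1.21, SE 0.148, adjusted p = 0.000519). Igtp was also called with each sugar in each genotype. Each of these 4 calls was lost in some alternatives: in control mice 3 of 10 with sucrose and 5 of 10 with fructose, the replicate block among the latter, and in libraries labelled MED13-LKO 2 of 10 and 3 of 10. With fructose in control mice its log2 change ran from 0.74 to 1.37 with 1 mouse left out. Irgm2 (chr11:58199618-58222782, plus strand) held 228 and 339 when fasted, 596 and 387 on sucrose, then 614 and 364 on fructose in control mice and 205 and 215, 807 and 463, then 378 and 438 in the other genotype. The 2 refed mice of a group often differed widely, and the averaged difference was 2.01-fold (log2 change 1.01, SE 0.199, adjusted p = 0.00616). The exons of Igtp and Irgm2 overlap on the same strand, and 15.9% and 10.7% of their subsequences are shared, chiefly with each other.

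Irgm1 (chr11:48861968-48871683, minus strand) lies elsewhere on chromosome 11 and shares 2.21% of its subsequences. It held 672 and 880.0 when fasted, 1108 and 1047 on sucrose, then 1275 and 1016 on fructose in control mice and 746 and 679, 1247 and 1162, then 1111 and 1480.0 in libraries labelled MED13-LKO. The order of fasted below refed held without exception (log2 change 0.66, SE 0.102, adjusted p = 0.00180). The remaining GTPases, Gbp2, Gbp3, Gbp7 and Iigp1, had log2 changes from -0.04 to 0.07 with feeding and none was called.

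Irf1 (chr11:53770014-53778374, plus strand) held 375 and 431 when fasted, 551 and 596 on sucrose, then 518 and 557 on fructose in control mice and 454 and 396, 481 and 531, then 631 and 724 in libraries labelled MED13-LKO. The fructose mice of the second genotype were highest, and no refed mouse fell into the fasted range (log2 change 0.46, SE 0.0741, adjusted p = 0.00214). Stat2 rose less, by 0.30 (SE 0.0691, adjusted p = 0.0142), and lost its call without control fasted 2 or MED13-LKO fasted 2 (adjusted p up to 0.0708). Irf7 was not called with feeding (-0.14, adjusted p = 0.376), nor was Irf9 (0.03).

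**Figure D4:**
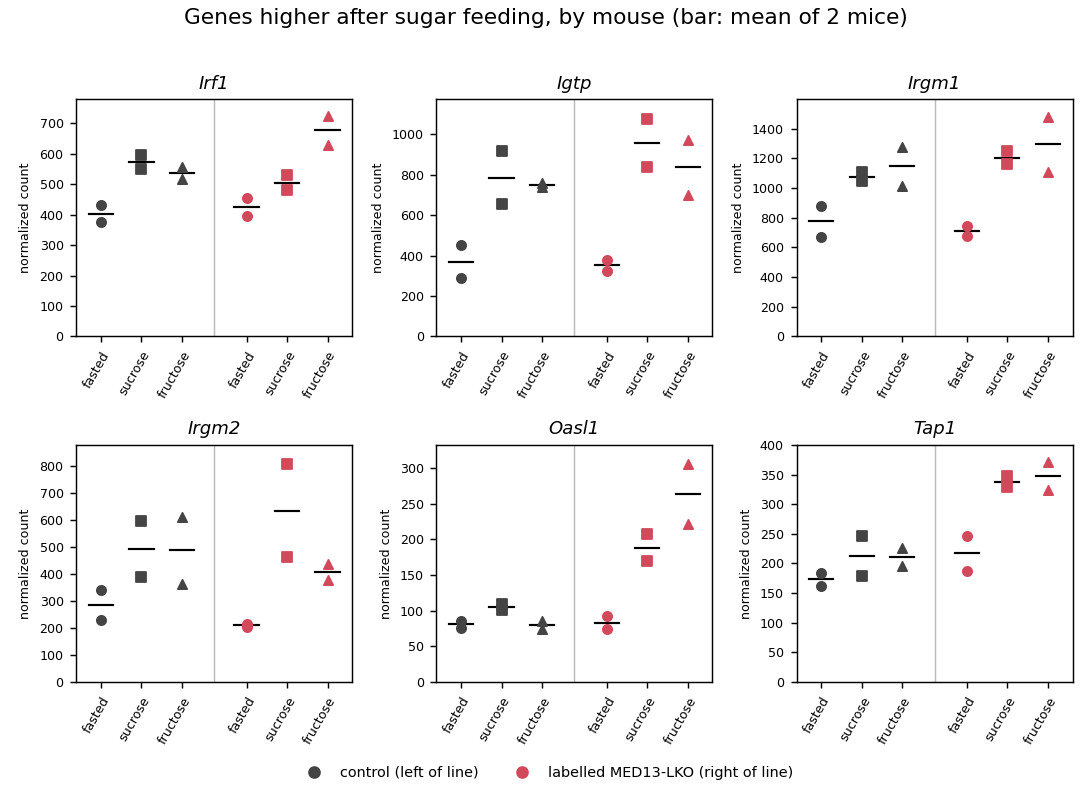
Normalized counts of Irf1, Igtp, Irgm1, Irgm2, Oasl1 and Tap1 in each mouse, with a vertical axis from 0, control mice left of the grey line and libraries labelled MED13-LKO right of it. Circles are fasted, squares sucrose and triangles fructose mice, and bars are means of 2; circles are lowest on both sides of the line in the first 4 panels, while refed Oasl1 is above 150 only on the right.

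Oasl1 and Tap1 differed with both genotype and feeding. Oasl1 (chr5:114923240-114937915, plus strand) held 76.2 and 85.9 when fasted, 109 and 101 on sucrose, then 85.7 and 74.4 on fructose in control mice and 92.6 and 73.4, 169 and 207, then 222 and 305 in libraries labelled MED13-LKO. Control mice spanned 74.4 to 109, fasted mice of the genotypes overlapped, and the 4 refed libraries labelled MED13-LKO stood above all others. The change with feeding was 1.17 with sucrose (SE 0.207, adjusted p = 0.0112) and 1.64 with fructose (SE 0.207, adjusted p = 0.00338) in those libraries. In control mice it was 0.37 (adjusted p = 0.297) and -0.02 (adjusted p = 0.972). The difference between genotypes in the change with fructose, tested as an interaction, was 1.66 and did not pass (SE 0.293, adjusted p = 0.195). The one with sucrose was 0.80 (SE 0.293, adjusted p = 0.505).

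Tap1 (chr17:34187553-34197225, plus strand) held 162 and 184 when fasted, 246 and 178 on sucrose, then 226 and 196 on fructose in control mice and 188 and 247, 347 and 329, then 324 and 371 in the other genotype. The 4 refed libraries labelled MED13-LKO were again highest, and fed and fasted mice overlapped (log2 change 0.47, SE 0.115, adjusted p = 0.0164). The call with feeding was lost without control fasted 1 or MED13-LKO fasted 1 (adjusted p up to 0.074). B2m fell by 0.14 on the log2 scale after feeding (adjusted p = 0.0468), a call lost in 15 of 17 alternatives. The other 8 class I genes lay from -0.38 to 0.34, and the 5 class II genes from -0.03 to 0.39, with none called.

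By genotype and sugar, Irf1 and Igtp were called higher with sucrose in control mice (4.85% of all genes tested were higher and 3.72% lower), and Igtp with fructose (2.79% and 2.81%). In libraries labelled MED13-LKO, Oasl1, Igtp, Irgm1 and Irgm2 were called with sucrose (2.23% and 3.48%), and Irf1, Oasl1, Igtp and Irgm1 with fructose (2.94% and 3.58%). None of the 38 was called lower in these 4 comparisons. Of all genes called with sucrose in libraries labelled MED13-LKO, 39.1% were higher, and 50.7% with equal 75th percentiles, while 4 of the 38 were called, all higher, either way. More calls in one genotype than in the other are no difference between them. None of the 38 passed the limma test of the interaction of genotype with sucrose (0.146% of all genes tested) or with fructose (0.0243%). An unadjusted p under 0.05 was found for 2 and 4 of the 38, and for 1055 and 1170 of all 12366 genes tested. Fructose against sucrose also gave no call (0.0404%), with 1 of the 38 at an unadjusted p under 0.05, beside 1172 of all genes tested.

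**Figure D5:**
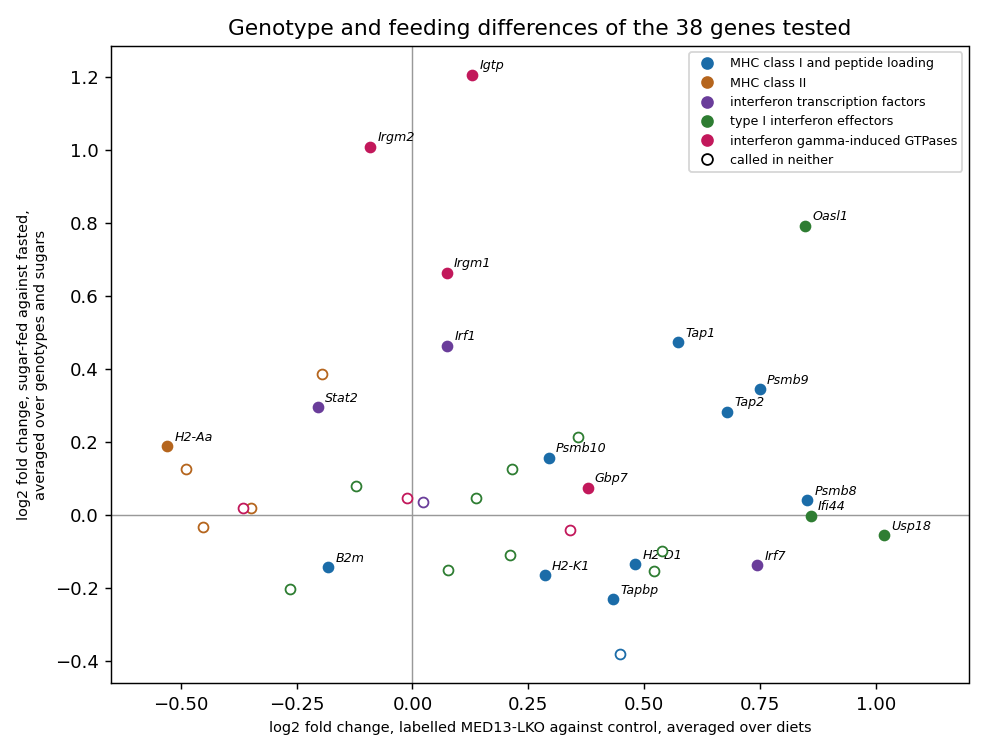
Each point is 1 of the 38 genes tested, with the log2 fold change between genotypes on the horizontal axis and between sugar-fed and fasted mice on the vertical axis, both from the same 12 libraries and coloured by role. Filled, named points were called in at least 1 of the 2 comparisons: Usp18, Irf7 and Psmb8 lie far right near 0 on the vertical axis, Igtp and Irgm2 lie high near 0 on the horizontal axis, and Oasl1 and Tap1 lie away from both.

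Of the 40 genes, 12 lie between 33915899 and 35267499 of chromosome 17 on GRCm38, the region of the mouse MHC, and 10 of these were tested. Between genotypes 7 of the 10 were higher and 1 was lower, beside 12.1% and 13.2% of all genes tested. They are class I and class II genes already counted above by role, and not a separate result. Tap1 and Psmb9 start close together on opposite strands and share 212 exon bases, and Psmb8 shares 14.7% of its exon bases with Gm20496 on the opposite strand. Tapbp shares 24.9% of its exon bases with Gm19412, also on the opposite strand. Tap2 shares 14.1% with Gm15821 and 4.36% with Gm20496, both on the opposite strand. Whether counting used the strand is not given in the sources used here, so reads of such pairs cannot be told apart. By symbol, 7 genes had no promoter window: Usp18, Tap2, Nlrc5, H2-Ab1, Cd74, Ciita and Iigp1.

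Further genes of the same pathways were read from lists. Of 21 other genes of class I and peptide loading tested, 6 were higher and 2 lower between genotypes, where 12.1% of all genes tested were higher and 13.2% lower. Their median log2 change was 0.17. The nonclassical class I gene H2-T23 was higher by 0.55 (SE 0.0600, adjusted p = 0.000161). The lower genes were Pdia3, at -0.47 (SE 0.101, adjusted p = 0.00755), and the chaperone calreticulin Calr, at -0.42 (SE 0.112, adjusted p = 0.0214), both of which also serve protein folding in general. A further list of 14 genes of the class II route also holds proteases and regulators, and 8 of them were tested. Of these 8, 2 were higher and 1 was lower, beside the same 12.1% and 13.2%, with a median log2 change of 0.17. Rfx5, part of the complex that binds class II promoters, was higher by 0.95 (SE 0.0757, adjusted p = 2.30e-05), and the cathepsin gene Ctsl was lower at -0.51 (SE 0.0599, adjusted p = 0.000267). Lgmn, another lysosomal protease, was higher by 0.22 (SE 0.0602, adjusted p = 0.0234).

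Of 24 genes of interferon sensing and signalling tested, 4 were higher and 1 was lower between genotypes, beside 12.1% and 13.2% of all genes tested, so the share higher was near the background. Their median log2 change was 0.072. The receptor chain Il10rb was higher by 0.46 (SE 0.0873, adjusted p = 0.00400), the RNA sensor Ifih1 by 0.39 (SE 0.116, adjusted p = 0.0329) and the adaptor Ticam1 by 0.33 (SE 0.0992, adjusted p = 0.0374). Of 48 other interferon-induced genes tested, 10 were higher and 2 lower, beside the same 12.1% and 13.2%, with a median log2 change of 0.23. The nucleic acid sensor Zbp1 led at 1.01 (SE 0.158, adjusted p = 0.00146), followed by Apol9a at 0.96 (SE 0.147, adjusted p = 0.00127) and Ifi27 at 0.80 (SE 0.1001, adjusted p = 0.000404).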

How the data were processed

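Liver RNA was sequenced from 12 mice, and groups were taken from the sample titles. The authors deposited 1 table of normalized counts (a signal, not raw counts), made per the labels with Trim Galore 0.6.5, kallisto 0.46.0 and DESeq2 1.24.0 on mm10. Because the values are not whole counts, limma was used in place of a count test. In R 4.3.3 with limma 3.58.1, log2(normalized count + 1) was fitted to 6 group means for 12366 genes whose mean reached 10, with moderated variances that follow the mean. Fold changes on that scale understate changes of low genes. P-values carry the Benjamini-Hochberg adjustment over all genes tested, and an adjusted p under 0.05 is called. With 2 mice a group, p-values rest on the spread between these mice. That spread is pooled over all 6 groups, also for a comparison within 1 feeding state. The method was run on simulated log2 values with independent normal noise and known changes between genotypes. Only the comparison averaged over feeding states was read there, so calls within 1 feeding state were not tested in this way.

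Symbols and positions came from GENCODE M21 (GRCm38), which held 16212 of 16346 identifiers. Sequence shared between genes was counted over 31-base subsequences. Depth was estimated from the steps between low values of genes with 1 transcript, of which 66% to 95.8% fell within 0.02 of a whole multiple. The genes, lists and comparisons were chosen with earlier results of these data known. All 40 genes may be named. Values of every mouse are given for called genes, at most the 12 with the largest change in a comparison, and genes called nowhere are given by range, with up to 2 a group by value. At most 3 called genes of each further list are named, by size of change. B2m, Isg15, Ifit1, Rsad2, Xaf1, Oas1a and the promoter stretches were chosen after their values were seen, and stretches in an annotated UTR were passed over. Alternatives were pseudocounts of 0.1 and 10, no filter, a replicate block, equal 75th percentiles, only the groups compared, and each mouse left out. Figures used Python 3.11.15 and matplotlib 3.10.9.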

Additional observations from a re-analysis of the deposited data

How the results depend on the processing

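No called result of the 40 genes changed direction. Of 54 calls of single genes, 19 held under every alternative, and 166 of 717 recomputed values lost the call. Of the 38 genes tested, 16 were called between genotypes on average (12 to 17 with 1 mouse left out) and 8 with feeding (6 to 9). Calls within 1 feeding state were fewer. Between fasted genotypes 4 became 2 without a filter on low values and 2 with the replicate block. With sucrose 6 became 3 with the replicate block and 3 with only the groups compared, and with fructose 9 became 1 with only the groups compared. For sucrose against fasted control mice 2 became 0 with only the groups compared. For fructose 1 became 0 in that setting and 0 with the replicate block. The cause was not tested, but a fit of 4 libraries has fewer samples. With 1 mouse left out, the counts ran from 0 to 1 (fasted genotypes, any of its 4 mice), 0 to 7 (sucrose genotypes, 0 without MED13-LKO sucrose 1 and 1 without MED13-LKO sucrose 2 or control sucrose 2) and 1 to 6 (fructose genotypes, 1 without MED13-LKO fructose 2 and 3 without control fructose 2). In control mice they ran from 0 to 1 for sucrose without any of its 4 mice, and from 0 to 1 for fructose, with 0 without control fasted 1 or control fructose 1. In libraries labelled MED13-LKO they ran from 0 to 2 for sucrose without any of its 4 mice, and from 1 to 4 for fructose, with 1 without MED13-LKO fasted 2 or MED13-LKO fructose 2 and 2 without MED13-LKO fasted 1. A group of 1 mouse is then assumed to vary like the others. Replicate numbers from the sample titles gave no sign of pairing: correlations of same-numbered deviations between groups compared lay from -0.142 to 0.0479. The deposited library names number fasted and refed mice differently, so this does not settle whether mice were paired. The block gave 16 calls between genotypes on average and 7 with feeding. Crossing the numbers of MED13-LKO fructose, chosen after seeing the data, gave 7 calls with fructose, and the uncrossed block also 7. The 2 mice a group and the low counts of class II and several effector genes limit what could be called.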

Other observations

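Among the further interferon-induced genes, 10 of 48 tested were called higher and 1 lower with feeding, averaged over genotypes and sugars, where 10.7% of all genes tested were higher and 11.0% lower. Ifi47, a GTPase of the same family as Irgm1, was higher by 1.02 (SE 0.200, adjusted p = 0.00593), and the guanylate-binding protein gene Gbp11 by 1.25 (SE 0.371, adjusted p = 0.0380). The ubiquitin ligase gene Dtx3l was higher by 0.57 (SE 0.0900, adjusted p = 0.00194). The median log2 change of the 48 was 0.11. Of 24 sensing and signalling genes 3 were higher and 1 was lower, near the same 10.7% and below the 11.0% of all genes, with a median log2 change of 0.059. Socs3, which dampens cytokine signalling, was higher by 0.44 (SE 0.138, adjusted p = 0.0467), and the adaptors Ticam1 and Mavs by 0.36 (SE 0.105, adjusted p = 0.0373) and 0.35 (SE 0.0796, adjusted p = 0.0128).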
